A study of Bos indicus x Bos taurus with 20 samples.

Results

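The genes described are 10 that belong to 3 linked systems of oxidant and metal defence in bovine embryos: the NRF2 pathway (NFE2L2, KEAP1 and its target enzymes NQO1, SRXN1, HMOX1, together with HMOX2), the ferritin subunits FTH1 and FTL, and the metallothioneins MT1A and MT2A. They were chosen by symbol, and all 10 were among the 30675 gene entries of the count table of the 2-cell and 8-cell stages. The embryos were of Bos indicus x Bos taurus origin and wild type in all groups. Zygotes had been injected with vehicle (Control) or with METTL7A mRNA transcribed in vitro, and polyA RNA of embryos was sequenced at the 2-cell and the 8-cell stage, giving 4 groups of 2 libraries. METTL7A encodes an enzyme of the endoplasmic reticulum membrane that methylates thiols, and the series asks what raising it does to oxidative stress in the embryo. No group received another mRNA, so an effect of METTL7A cannot be told apart from one of injecting mRNA. How many embryos went into a library, and whether replicates came from separate pools, is not given in the sources used here.

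NRF2, the protein of NFE2L2, is a transcription factor that KEAP1 holds for destruction by the CUL3 ubiquitin ligase. When oxidants or electrophiles modify KEAP1, NRF2 escapes, pairs with small MAF proteins and raises transcription of detoxifying enzymes, haem oxygenase and both ferritin subunits. Metallothioneins are small cysteine-rich proteins that bind zinc and copper and are induced through the zinc sensor MTF1. Ferritin RNAs are also held back from translation by iron regulatory proteins, so a level of RNA is not a level of protein.

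Named-gene counts ran from 15781017 to 20737404 per library, and 17914 to 20242 genes were detected. Levels are given as CPM, the gene's share of a library's scaled counts, and "passed" means a Benjamini-Hochberg adjusted p of edgeR's quasi-likelihood test under 0.05 over all 16149 genes tested. All 10 genes were among those tested, MT1A and MT2A only through their counts in the Control 8-cell libraries. METTL7A itself took 1.61% to 5.23% of the counts in the 4 injected libraries and 0.000713% to 0.00223% in the 4 Control libraries.

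The Control 8-cell libraries stood apart and differed from each other. Counts of their replicates differed by a chi-square of 299 per degree of freedom, against 2.41 in Control 2-cell, 41.6 in METTL7A 2-cell and 51.4 in METTL7A 8-cell embryos. Markers of stromal cells and fibroblasts summed to 5744 CPM in Control 8-cell replicate 1 and 1057 CPM in replicate 2, against 84.7 and 109.5 CPM in the METTL7A 8-cell libraries and 77.3 to 143 CPM at the 2-cell stage. LUM gave 4779 and 667 CPM of the Control 8-cell sums, and 6 of the 8 genes were higher in replicate 1, while DCN (41.6 and 56.3 CPM) and POSTN (120 and 187 CPM) were higher in replicate 2. All 8 genes of that list reached 1 CPM in both Control 8-cell libraries, 7 of 8 did in METTL7A 8-cell libraries, and none was at 0 there. FBN1 was lower in Control 8-cell (60.6 and 56.2 CPM) than in Control 2-cell libraries (135 and 136 CPM). It gave 69.7 and 68.0 CPM of the METTL7A 8-cell sums. Between stages of METTL7A 5 of the 8 genes passed as higher and 0 as lower, beside 23.1% and 17.1% of all genes. Markers of blastocyst epithelium and hypoblast summed to 4264 and 534 CPM in the Control 8-cell libraries and to 66.2 to 97.7 CPM in the other 6. SPARC, APOA1 and KRT8 gave 2142, 1464 and 476 CPM of the replicate 1 sum. Of the 12 genes, 8 were higher in replicate 1 than in replicate 2. Between stages of METTL7A 4 of the 11 tested passed as higher and 0 as lower. SOX17 was at 0 in both Control 8-cell libraries, and KRT19, CDX2 and LGALS3 were lower there than in the Control 2-cell libraries. Markers of cumulus and granulosa cells summed to 1216 and 278 CPM in the Control 8-cell libraries, against 186 and 169 CPM in METTL7A 8-cell and 404 to 462 CPM in 2-cell libraries. Of these 11 genes 8 were higher in Control 8-cell replicate 1 than in replicate 2. CYP11A1, the enzyme that starts steroid synthesis, had 8256 and 844 counts in the Control 8-cell libraries and 1 or 0 in the other 6. STAR, which feeds cholesterol to it, was lower there (33.2 and 34.8 CPM) than in Control 2-cell libraries (213 and 216 CPM), as were HAS2 and CYP19A1. Sums of 10 oocyte transcripts were 14514 CPM or more in all libraries, with BTG4 at 10061 CPM in the lowest, Control 8-cell replicate 1. Between stages of Control 7 of these 10 passed as lower and 1 as higher, beside 22.8% and 29.9% of all genes. Sums of 4 genome activation genes were 79.4 to 98.2 CPM in 2-cell libraries. They were 2010 and 6371 CPM in Control and 8750 and 11554 CPM in METTL7A 8-cell libraries. ZSCAN4 of that list was lower in Control 8-cell (24.6 and 66.5 CPM) than in Control 2-cell libraries (92.7 and 89.6 CPM). The part of other cell types in the results was not tested. In bulk samples of this kind, fewer cells of a type and less RNA per cell cannot be told apart.

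**Figure D1:**
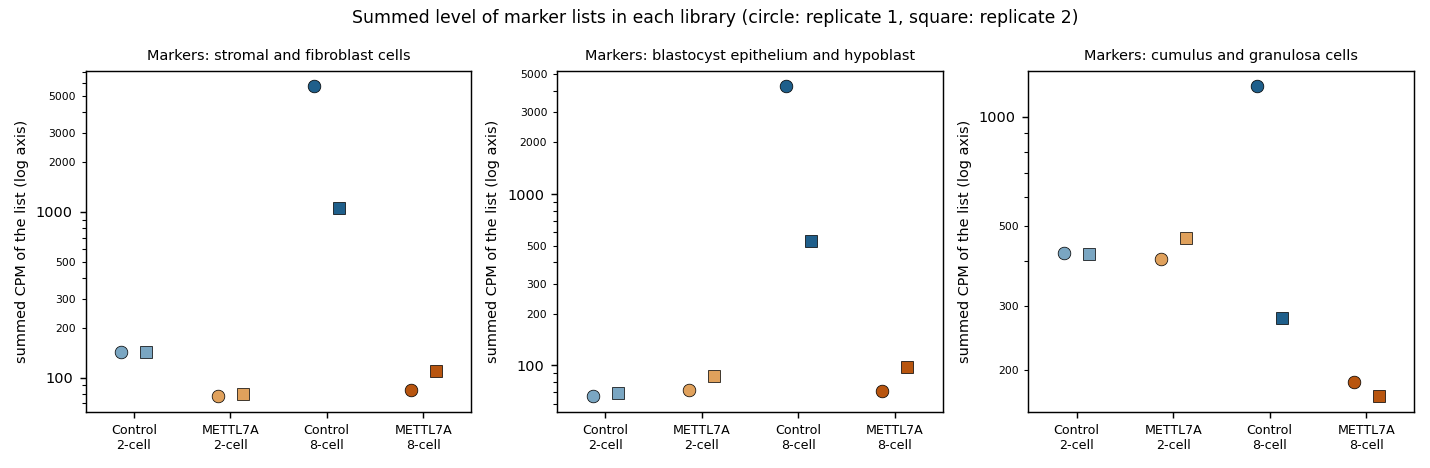
Summed CPM (log axis) of 3 marker lists in each of the 8 libraries, circles for replicate 1 and squares for replicate 2. Control 8-cell replicate 1 is highest in all 3 lists, at 5744, 4264 and 1216 CPM.

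NFE2L2 rose and KEAP1 fell between the 2-cell and 8-cell stages of Control embryos, and neither passed between treatments. NFE2L2 was at 20.7 and 18.2 CPM in Control 2-cell, 33.0 and 18.8 CPM in METTL7A 2-cell, 87.9 and 45.7 CPM in Control 8-cell and 49.3 and 56.4 CPM in METTL7A 8-cell libraries. All 4 libraries of the 8-cell stage were above all 4 of the 2-cell stage. KEAP1 was at 56.2 and 58.7 CPM in Control 2-cell, 42.9 and 58.6 CPM in METTL7A 2-cell, 19.2 and 22.6 CPM in Control 8-cell and 24.5 and 26.5 CPM in METTL7A 8-cell libraries. Here all 4 libraries of the 8-cell stage were below all 4 of the 2-cell stage. In Control embryos NFE2L2 rose by 1.78 on the log2 scale (SE 0.411, edgeR adjusted p = 0.00624), from 19.5 ± 1.8 to 66.8 ± 29.8 CPM (mean ± SD, n = 2), and KEAP1 fell by 1.46 (SE 0.306, adjusted p = 0.00385). The NFE2L2 call was lost without Control 2-cell replicate 2 (log2 change 1.64, adjusted p = 0.0613), and the change was 1.21 without Control 8-cell replicate 1, where it passed. In METTL7A-injected embryos KEAP1 fell by 0.99 (SE 0.303, edgeR adjusted p = 0.0274), and NFE2L2 differed by 1.03 (SE 0.404, adjusted p = 0.0700). That KEAP1 call was lost without any of 5 libraries, namely Control 2-cell replicate 1 (edgeR adjusted p = 0.0585) or 2 (0.0581), METTL7A 2-cell replicate 2 (0.188) and METTL7A 8-cell replicate 1 (0.103) or 2 (0.0863). NFE2L2 passed there without either Control 8-cell library (edgeR adjusted p = 0.0151 and 0.0154).

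The ratio of KEAP1 to NFE2L2 counts within a library, which needs no scaling between libraries, turned over with stage. It was 2.71 and 3.23 in Control 2-cell, 1.30 and 3.11 in METTL7A 2-cell, 0.219 and 0.496 in Control 8-cell and 0.497 and 0.470 in METTL7A 8-cell libraries. Between treatments NFE2L2 differed by 0.41 at the 2-cell and -0.34 at the 8-cell stage on the log2 scale (SE 0.402 and 0.399, edgeR adjusted p = 0.911 and 0.613), with overlapping groups at both stages. KEAP1 differed by -0.18 and 0.28 (SE 0.299 and 0.302, adjusted p = 0.974 and 0.569).

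**Figure D2:**
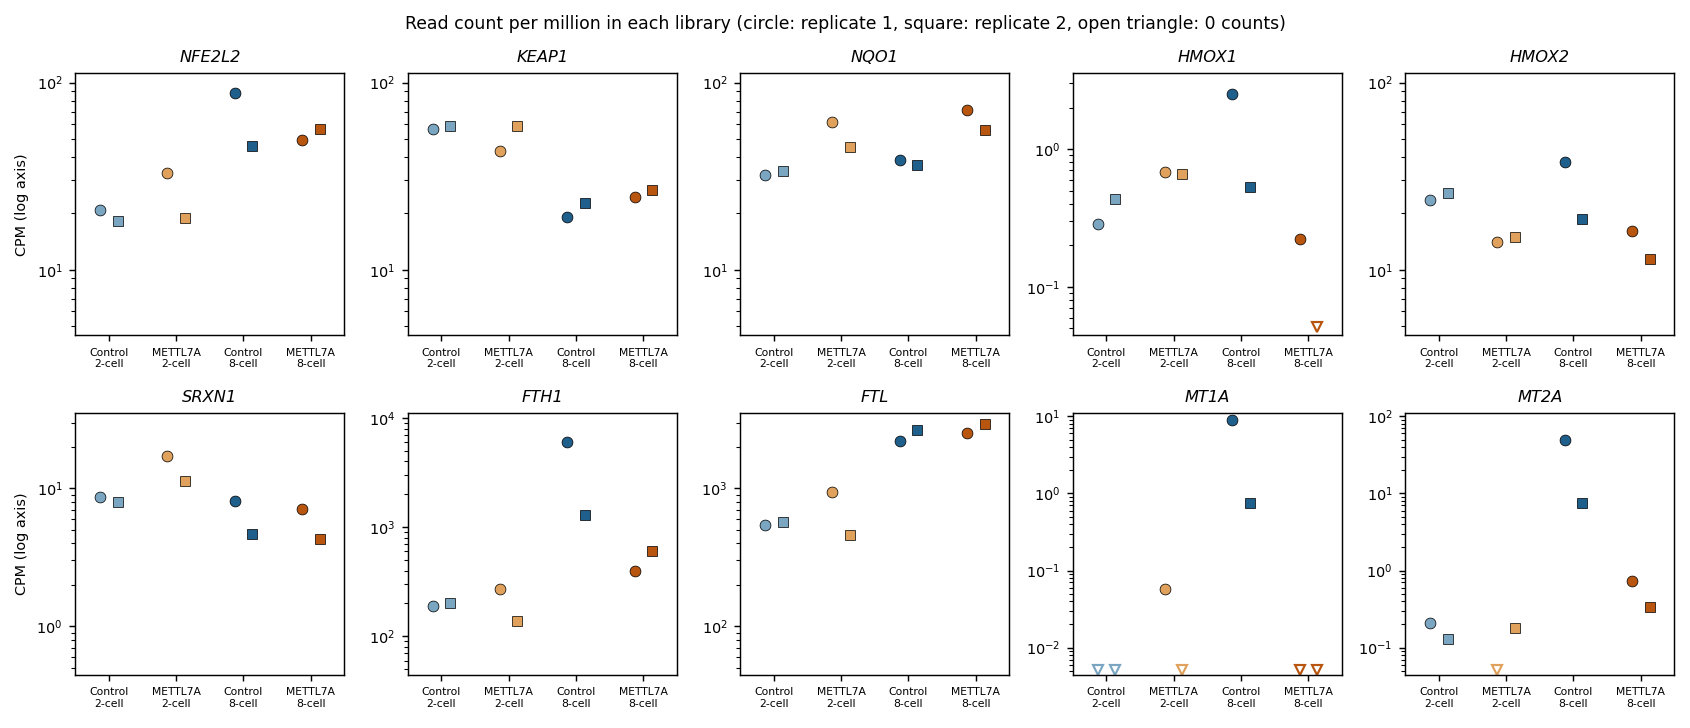
CPM (log axis) of the 10 genes in each of the 8 libraries, circles for replicate 1, squares for replicate 2 and open triangles for 0 counts. NFE2L2 and FTL are higher and KEAP1 is lower at the 8-cell stage in all libraries, and FTH1, HMOX1, MT1A and MT2A are highest in Control 8-cell replicate 1.

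Of the enzymes, NQO1 was higher and HMOX2 lower in every METTL7A library than in every Control library, yet neither passed in any of the 4 comparisons with all libraries. NQO1 is a quinone reductase that uses NADH or NADPH and is a classical readout of NRF2 activity. Its level was 32.0 and 33.6 CPM in Control 2-cell, 61.6 and 45.4 CPM in METTL7A 2-cell, 38.4 and 36.4 CPM in Control 8-cell and 71.3 and 55.7 CPM in METTL7A 8-cell libraries. Treatments did not overlap at either stage, and the stages differed little within a treatment. The difference between treatments was 0.70 on the log2 scale at the 2-cell stage (SE 0.298, unadjusted p = 0.0413, edgeR adjusted p = 0.646) and 0.77 at the 8-cell stage (SE 0.299, unadjusted p = 0.0298, edgeR adjusted p = 0.146).

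HMOX2, the constitutive haem oxygenase, is not an inducible NRF2 target. It stood at 23.7 and 25.6 CPM in Control 2-cell, 14.0 and 14.9 CPM in METTL7A 2-cell, 37.5 and 18.7 CPM in Control 8-cell and 16.2 and 11.5 CPM in METTL7A 8-cell libraries. The difference between treatments was -0.77 on the log2 scale at the 2-cell stage (SE 0.410, edgeR adjusted p = 0.760) and -1.02 at the 8-cell stage (SE 0.413, adjusted p = 0.157). The latter was -0.44 without Control 8-cell replicate 1 and -1.42 without replicate 2. The ratio of HMOX2 to NQO1 counts within a library was 0.740 and 0.762 in Control 2-cell and 0.977 and 0.515 in Control 8-cell embryos. It was 0.227 and 0.328 in METTL7A 2-cell and 0.227 and 0.206 in METTL7A 8-cell embryos, below every Control library.

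A contrast averaged over both stages, added after these values had been seen, gave a METTL7A effect of 0.74 for NQO1 (SE 0.211, unadjusted p = 0.00655, edgeR adjusted p = 0.150) and -0.90 for HMOX2 (SE 0.291, unadjusted p = 0.0128, edgeR adjusted p = 0.166). In that contrast 0 of the 10 genes passed, where 0.0124% of all genes did. Without Control 8-cell replicate 2 the effects were 0.72 for NQO1 and -1.10 for HMOX2. DESeq2 called 1293 of 16149 genes in that contrast, with NQO1 (0.73, DESeq2 adjusted p = 0.0288), MT2A and FTH1 among them.

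**Figure D3:**
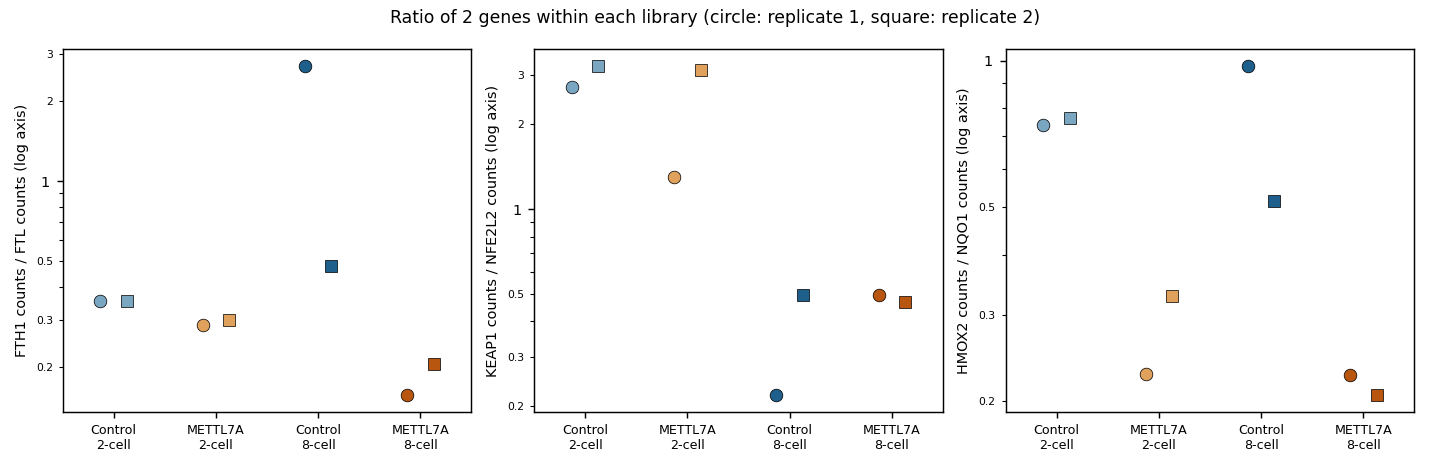
Ratio of the counts of 2 genes within each library (log axis), circles for replicate 1 and squares for replicate 2. KEAP1/NFE2L2 is at or above 1.30 at the 2-cell and at or below 0.497 at the 8-cell stage, HMOX2/NQO1 is lower in all 4 METTL7A libraries, and FTH1/FTL reaches 2.72 in Control 8-cell replicate 1.

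SRXN1, the sulfiredoxin that repairs over-oxidised peroxiredoxins, was at 8.62 and 7.91 CPM in Control 2-cell and 17.1 and 11.2 CPM in METTL7A 2-cell libraries. It was at 8.08 and 4.63 CPM in Control 8-cell and 7.08 and 4.27 CPM in METTL7A 8-cell libraries. The groups did not overlap at the 2-cell stage and did at the 8-cell stage, with treatment differences of 0.77 (SE 0.473, edgeR adjusted p = 0.825) and -0.16 (SE 0.480, adjusted p = 0.852). Between stages it differed by -1.31 in METTL7A-injected embryos (SE 0.483, edgeR adjusted p = 0.0558) and -0.38 in Control (SE 0.474, adjusted p = 0.528). In METTL7A-injected embryos it passed without Control 8-cell replicate 1 or 2 (edgeR adjusted p = 0.0114 and 0.0124).

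HMOX1, the inducible haem oxygenase, was close to the detection limit. Its counts were 7 and 10 in Control 2-cell, 12 and 15 in METTL7A 2-cell, 45 and 9 in Control 8-cell and 3 and 0 in METTL7A 8-cell libraries. The METTL7A 8-cell libraries were below both Control 8-cell libraries, and Control 8-cell replicate 1 held most of the counts of its group. Over the groups, 3 counts in METTL7A against 54 in Control at the 8-cell stage gave a ratio of 13.2 in favour of Control (95% counting interval 4.27 to 65.8, edgeR adjusted p = 0.108). The ratio was 4.49 (1.12 to 25.8) without Control 8-cell replicate 1 and 21.5 (6.89 to 108) without replicate 2. In 8-cell against 2-cell Control embryos the ratio was 4.32 (2.46 to 7.94, edgeR adjusted p = 0.119). The log2 change between these stages was 2.74 without Control 8-cell replicate 2 and 0.53 without replicate 1.

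The ferritin subunits diverged at the 8-cell stage. FTH1 encodes the heavy chain, which oxidises iron for storage, and FTL the light chain, which helps form the mineral core. FTL stood at 542 and 569 CPM in Control 2-cell, 942 and 463 CPM in METTL7A 2-cell, 2199 and 2662 CPM in Control 8-cell and 2529 and 2934 CPM in METTL7A 8-cell libraries. It was higher at the 8-cell stage in all libraries and overlapped between treatments at both stages. The rise was 2.13 on the log2 scale in Control (SE 0.390, edgeR adjusted p = 0.00203) and 1.96 in METTL7A-injected embryos (SE 0.388, adjusted p = 0.00387). The latter missed the threshold without METTL7A 2-cell replicate 2 (1.52, edgeR adjusted p = 0.0503). Between treatments FTL differed by 0.34 at the 2-cell stage (SE 0.375, edgeR adjusted p = 0.931) and by 0.17 at the 8-cell stage (SE 0.374, adjusted p = 0.796), the latter turning to -0.070 when METTL7A and LOC781439 were left out of library sizes.

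FTH1 was at 191 and 201 CPM in Control 2-cell, 271 and 139 CPM in METTL7A 2-cell, 5975 and 1280 CPM in Control 8-cell and 397 and 605 CPM in METTL7A 8-cell libraries. It took 0.580% of all counts in Control 8-cell replicate 1 (exact Clopper-Pearson 95% interval 0.576% to 0.583%) and 0.129% in replicate 2. The METTL7A 8-cell libraries lay between the 2-cell libraries and Control 8-cell replicate 2. FTH1 rose by 4.21 from the 2-cell to the 8-cell stage in Control (SE 0.711, edgeR adjusted p = 0.00138). That rise was 2.69 without Control 8-cell replicate 1 and still passed. In METTL7A-injected embryos the change was 1.29 (SE 0.635, edgeR adjusted p = 0.135), which passed without Control 8-cell replicate 1 or 2 (edgeR adjusted p = 0.00827 and 0.00885).

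Between treatments at the 8-cell stage FTH1 was lower in METTL7A-injected embryos, at 501 ± 147 against 3627 ± 3320 CPM (mean ± SD, n = 2). The log2 change was -2.86 (SE 0.669, edgeR adjusted p = 0.0457). Without Control 8-cell replicate 1, in which the summed stromal and blastocyst markers were highest, the change was -1.36 (edgeR adjusted p = 0.106). The call was also lost without METTL7A 2-cell replicate 1 (edgeR adjusted p = 0.102) or 2 (0.101) and without METTL7A 8-cell replicate 1 (0.212) or 2 (0.308), and it held in the other 3 fits that left out a library. It missed the threshold with RLE size factors (-2.92, edgeR adjusted p = 0.0520) and when only the 8-cell groups were fitted (-2.99, adjusted p = 0.0837). DESeq2 called it, among 2374 of 16149 genes. At the 2-cell stage the difference was 0.06 (SE 0.625, edgeR adjusted p = 1), and the effects at the 2 stages differed by -2.92 (SE 0.901, adjusted p = 0.205). Counts of FTH1 can include reads from processed copies of this gene, so its level is uncertain to that extent.

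The ratio of FTH1 to FTL counts within a library was 0.353 and 0.354 in Control 2-cell, 0.288 and 0.300 in METTL7A 2-cell, 2.72 and 0.481 in Control 8-cell and 0.157 and 0.206 in METTL7A 8-cell libraries. It was above the 2-cell libraries in both Control 8-cell libraries and below all others in both METTL7A 8-cell libraries. FTMT, the mitochondrial ferritin, had 0 to 5 counts in a library and was not tested.

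MT1A and MT2A RNA was found almost only in Control 8-cell libraries. MT2A had 5 and 3 counts in Control 2-cell, 0 and 4 in METTL7A 2-cell, 879 and 129 in Control 8-cell and 10 and 4 in METTL7A 8-cell libraries. These counts are 49.3 and 7.57 CPM in Control 8-cell and 0.738 CPM or less in the other 6 libraries. MT1A had 161 and 13 counts in Control 8-cell libraries, 1 count in METTL7A 2-cell replicate 1 and 0 in the other 5. For Control 2-cell replicate 1, 0 counts allow a share of up to 1.78e-05% of the library (exact 95% interval).

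From the 2-cell to the 8-cell stage of Control embryos MT2A rose by 7.34 on the log2 scale (SE 1.17, edgeR adjusted p = 0.00103), and the counts differed by a ratio of 171 (95% counting interval 86.5 to 398). Without Control 8-cell replicate 1 the change was 5.42 and still passed. MT1A was at least 78.8-fold higher at the 8-cell stage of Control, taking 3 counts over the 2-cell group as the floor (edgeR adjusted p = 0.00674). It did not pass with DESeq2 (adjusted p = 0.0817) or when only these groups were fitted (edgeR adjusted p = 0.0587). In METTL7A-injected embryos MT2A counts went from 4 to 14 over the groups (log2 change 2.41, SE 1.29, edgeR adjusted p = 0.168). That change passed without Control 8-cell replicate 2 (edgeR adjusted p = 0.0479). Both METTL7A groups were at or under 1 count of MT1A, so no fold is given.

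At the 8-cell stage MT2A was lower in METTL7A-injected embryos, at 0.536 ± 0.285 against 28.4 ± 29.5 CPM (mean ± SD, n = 2). The log2 change was -5.70 (SE 1.08, edgeR adjusted p = 0.0305), and counts were 52.6 times as high in Control (95% counting interval 31.2 to 96.6). Without Control 8-cell replicate 1 the ratio was 13.8 (7.92 to 25.9) and the log2 change -3.79 (edgeR adjusted p = 0.0550). Without replicate 2 the ratio was 89.8. The call was also lost without METTL7A 2-cell replicate 1 (edgeR adjusted p = 0.0735) or 2 (0.0726) and without METTL7A 8-cell replicate 1 (0.172) or 2 (0.308). MT1A was at least 42.4-fold lower in METTL7A-injected embryos and did not pass (edgeR adjusted p = 0.0557). The bound was 6.48-fold without Control 8-cell replicate 1, where MT1A fell under the low-count filter and was not tested. It was 76.8-fold without replicate 2. Whether MT1A passed changed with the library left out. At the 2-cell stage MT2A had 8 counts in Control and 4 in METTL7A over the groups (edgeR adjusted p = 0.979), and its effects at the 2 stages differed by -4.93 (SE 1.92, adjusted p = 0.264).

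Other metallothionein entries separated into those that followed MT2A and those that did not. MT1E had 118 and 8 counts in Control 8-cell libraries and 0 in the other 6, which is at least 30.7-fold lower in METTL7A than in Control 8-cell embryos (3.99-fold without Control 8-cell replicate 1), and it was under the low-count filter with all libraries. The bound was 56.3-fold without Control 8-cell replicate 2. A separate entry named MT1E_1 had 121 and 35 counts in Control 8-cell, 8 and 0 in METTL7A 8-cell, 0 and 3 in METTL7A 2-cell and 0 in both Control 2-cell libraries. Its ratio between treatments at the 8-cell stage was 14.3 (95% counting interval 7.06 to 33.6, edgeR adjusted p = 0.121), and 6.54 without Control 8-cell replicate 1. MT3 and MT4, known from brain and from squamous epithelium, were found in every library at 2.17 to 7.03 and 0.866 to 10.1 CPM. MT4 rose from the 2-cell to the 8-cell stage of METTL7A-injected embryos by 2.35 (SE 0.666, edgeR adjusted p = 0.0203), a call lost without METTL7A 2-cell replicate 1 or 2 or METTL7A 8-cell replicate 1 (1.59 to 2.91 over all fits, highest adjusted p = 0.168), and MT3 did not pass in any comparison. Metallothionein genes are close copies of each other, so the split of reads among them is uncertain.

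**Figure D4:**
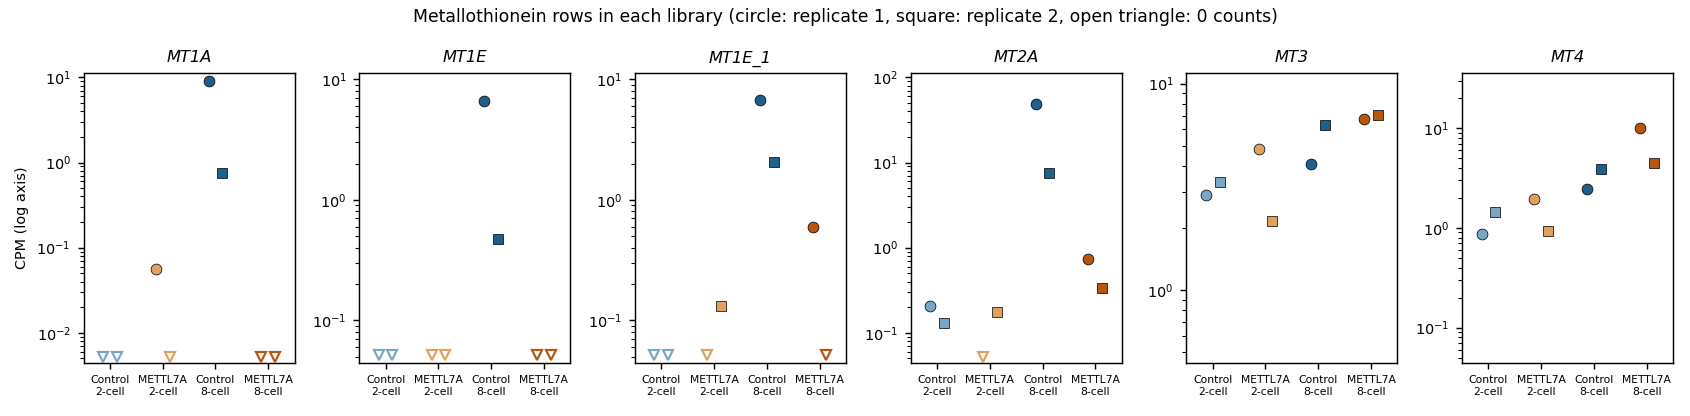
CPM (log axis) of the 6 metallothionein entries in each of the 8 libraries, circles for replicate 1, squares for replicate 2 and open triangles for 0 counts. MT1A, MT1E, MT1E_1 and MT2A peak in Control 8-cell replicate 1, while MT3 and MT4 are present in all 8 libraries.

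Counted over the 10 genes, 0 passed between treatments at the 2-cell stage, where 0.0124% of all genes did (2 of 16149). At an unadjusted p under 0.05 there were 1196 genes and 1 of the 10 (NQO1), and DESeq2 called 158 genes and none of the 10. At the 8-cell stage 2 of 10 passed, both lower (FTH1 and MT2A), against 5.29% of all genes in either direction and 4.55% lower. MT2A, like MT1A, entered the tested genes only through the Control 8-cell group, in which it is high, so its call is a description. Leaving out such genes, 1 of 8 was lower, against 3.35% of 15127 genes. The median log2 change of the 10 was -0.68, beside 0.14 over all genes tested. Groups did not overlap for 7 of 10 (2 higher and 5 lower), against 50.6% of all genes (28.1% higher and 22.4% lower). MT1A and MT2A were part of that median and of the 5 lower, so these values are descriptions. Both calls were lost without Control 8-cell replicate 1 or any METTL7A library, and the number of all genes called also moved with the library left out. Over these fits the log2 change ranged from -3.56 to -1.36 for FTH1 and from -6.46 to -3.79 for MT2A. At the 2-cell stage 4 of 10 had groups that did not overlap (3 higher and 1 lower), against 57.4% of all genes (26.9% higher and 30.5% lower).

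Between stages of Control embryos 5 of 10 rose (NFE2L2, FTH1, FTL, MT1A and MT2A) and 1 fell (KEAP1), against 29.9% and 22.8% of all genes and 52.7% in either direction. Without MT1A and MT2A these were 3 and 1 of 8, against 27.3% and 24.3% of the 15127 genes that entered without the Control 8-cell group. Groups did not overlap for 8 of 10 (7 higher and 1 lower), against 79% of all genes (40.8% higher and 38.1% lower). MT1A and MT2A were among the 7 higher, so these counts are descriptions. In METTL7A-injected embryos 1 rose (FTL) and 1 fell (KEAP1), against 23.1% and 17.1% of all genes and 40.2% in either direction. Groups did not overlap for 7 of 10 (4 higher and 3 lower), against 75.6% of all genes (38.5% higher and 37.1% lower). The count of 2 that passed changed with the library left out, as did the number of all genes called. Over these fits the log2 change ranged from 1.52 to 2.51 for FTL and from -1.25 to -0.77 for KEAP1. These comparisons share the 2-cell or 8-cell groups with the comparisons of treatments. For the difference between the METTL7A effects at the 2 stages 0 of 10 passed, where 0.0124% of all genes did. At an unadjusted p under 0.05 there were 2588 genes and 4 of the 10, and DESeq2 called 917 genes, with MT2A and FTH1 among them.

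**Figure D5:**
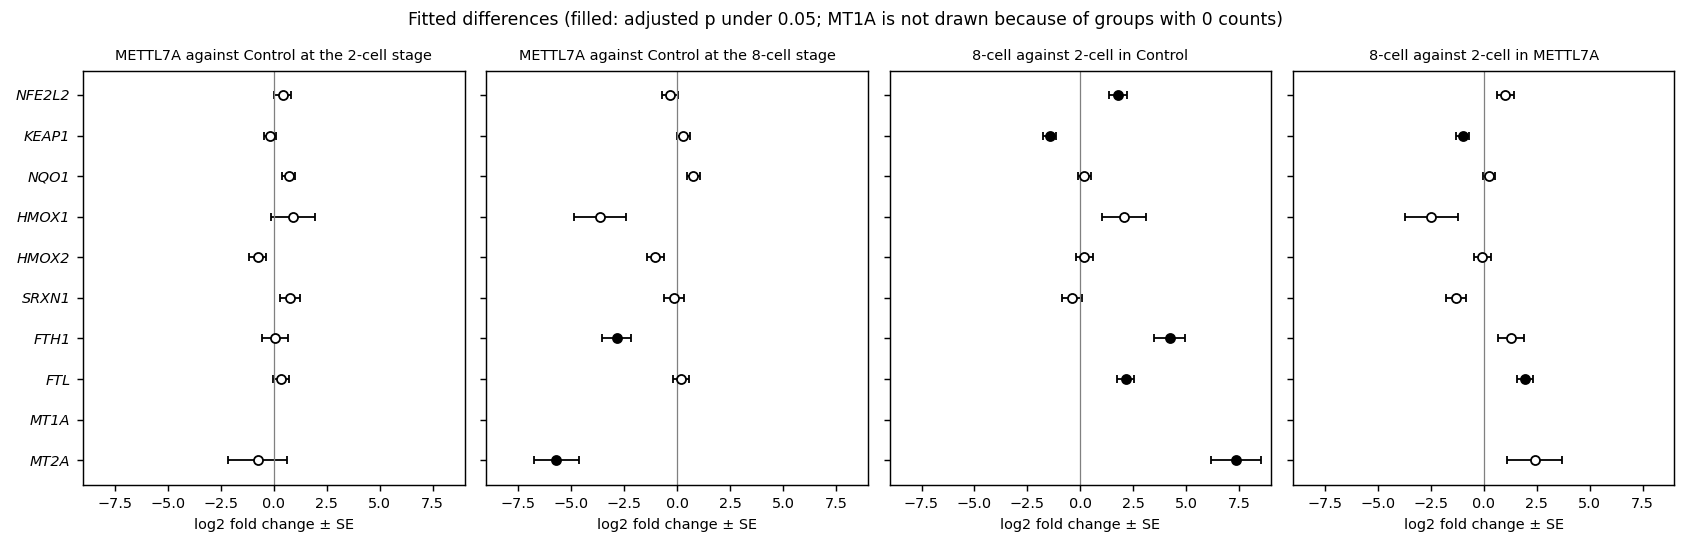
Fitted log2 fold change ± SE of the genes in 4 comparisons, filled where the edgeR adjusted p was under 0.05; MT1A is not drawn because of groups at 0 counts. FTH1 (-2.86) and MT2A (-5.70) are filled between treatments at the 8-cell stage, and none is filled at the 2-cell stage.

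Other genes of these pathways were read in 4 lists. Of the NRF2 partners and regulators, 13 of 14 were tested and 1 was lower in METTL7A than in Control 8-cell embryos, DPP3, a peptidase that competes with NRF2 for KEAP1. It was at 41.5 and 10.2 CPM in Control and 1.92 and 3.77 CPM in METTL7A 8-cell libraries (log2 change -3.19, SE 0.680, edgeR adjusted p = 0.0380). Of 23 tested among 24 other NRF2 targets, 2 were lower. BLVRB, a reductase of flavins and biliverdin, had 767 and 123 counts in Control and 3 and 1 in METTL7A 8-cell libraries (ratio 163, 95% counting interval 63.3 to 598, edgeR adjusted p = 0.0160). AIFM2, which reduces ubiquinone and protects from ferroptosis, had 463 and 55 against 1 and 1 counts (ratio 189, interval 52.2 to 1568, edgeR adjusted p = 0.0309). Both entered the tested genes only through the Control 8-cell group, so these calls are descriptions. Of all genes tested, 0.737% were higher and 4.55% lower in this comparison.

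Of 20 tested among 25 genes of iron and haem handling, 3 were lower and 1 higher in METTL7A 8-cell embryos, beside 4.55% and 0.737% of all genes. BLVRA, the main biliverdin reductase, was at 203 and 28.2 CPM in Control and 2.29 and 4.27 CPM in METTL7A (log2 change -5.14, SE 0.899, edgeR adjusted p = 0.0260). TF, which encodes transferrin, was at 30.9 and 10.03 against 0.664 and 1.17 CPM (-4.48, SE 0.732, edgeR adjusted p = 0.0208). ALAS1, the first enzyme of haem synthesis, was at 158 and 39.7 against 23.8 and 16.2 CPM (-2.31, SE 0.559, edgeR adjusted p = 0.0485). STEAP3, an endosomal ferrireductase, was the gene that was higher, at 8.58 and 14.8 CPM in Control and 37.9 and 57.5 CPM in METTL7A (2.03, SE 0.476, edgeR adjusted p = 0.0459). Of 18 tested among 20 genes of zinc handling 1 was lower, the zinc importer SLC39A8, at 231 and 25.5 against 9.22 and 2.01 CPM (-4.50, SE 1.03, edgeR adjusted p = 0.0436).

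The 7 genes that were lower were all highest in Control 8-cell replicate 1. How many of all genes called lower were also highest in that library is not given here. It had the highest sums of stromal, blastocyst and granulosa markers, and a part of other cell types in these calls was not tested. Without that library BLVRB (-5.48, edgeR adjusted p = 0.00685), TF (-3.46, adjusted p = 0.0213) and BLVRA (-3.11, adjusted p = 0.0145) still passed, and the ratio for BLVRB was 46.0 (95% counting interval 17.5 to 171). DPP3 (-1.86, edgeR adjusted p = 0.0687), AIFM2 (ratio 41.1, interval 10.9 to 348, adjusted p = 0.0795), ALAS1 (-0.995, adjusted p = 0.108), SLC39A8 (-2.17, adjusted p = 0.143) and STEAP3 (1.68, adjusted p = 0.0906) did not. The calls in the 4 lists were lost when any METTL7A library was left out. The number of all genes called moved with the library left out as well. STEAP3 passed in 1 of 8 fits that left out a library, the one without Control 8-cell replicate 2. Without that library the lists held 7, 14, 10 and 10 genes that passed in either direction, where 7126 of all genes did. The median log2 changes of the 4 lists at the 8-cell stage were -0.24, -0.45, -0.36 and 0.04, beside 0.14 over all genes tested. At the 2-cell stage 0 genes of any list passed, with medians of -0.31, -0.15, -0.19 and -0.05, beside 0 over all genes. Without Control 8-cell replicate 1, IREB2, an iron regulatory protein, was lower there (-1.56, edgeR adjusted p = 0.0485).

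Between the 2-cell and 8-cell stages of Control embryos, 3 of 13 NRF2 partners rose and 6 fell, beside 29.9% and 22.8% of all genes. RBX1 and CUL3, the ring protein and scaffold of the ligase that destroys NRF2, went from 60.1 ± 1.7 to 234.5 ± 102 CPM and from 37.7 ± 0.25 to 105 ± 2.2 CPM (log2 changes 1.96 and 1.48, SE 0.351 and 0.311, edgeR adjusted p = 0.0018 and 0.00388). BACH2, a repressor at NRF2 sites that was also tested only through its Control 8-cell counts, rose by 3.68 (SE 1.13, edgeR adjusted p = 0.0221) to 2.24 ± 1.59 CPM, and did not pass without Control 2-cell replicate 1 or 2 or Control 8-cell replicate 1 (highest adjusted p = 0.134). MAFG, a small MAF partner of NRF2, fell from 198 ± 1.3 to 28.7 ± 8.9 CPM (-2.79, SE 0.340, edgeR adjusted p = 0.000316). The coactivator CREBBP fell by 1.78 and PGAM5, a mitochondrial phosphatase that binds KEAP1, fell by 1.44 (edgeR adjusted p = 0.00175 and 0.00336).

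Among other NRF2 targets 7 of 23 rose and 6 fell over the same interval, beside 29.9% and 22.8% of all genes. TKT (transketolase) rose by 6.17 to 53.7 ± 20.1 CPM and TXN (thioredoxin) by 6.50 to 301 ± 267 CPM (edgeR adjusted p = 8.02e-05 and 0.00022). BLVRB rose by 7.16 (edgeR adjusted p = 0.000557). BLVRB and AIFM2 were tested only through their Control 8-cell counts, so a rise of either among the 7 is a description. GCLC, the catalytic subunit of the enzyme that limits glutathione synthesis, fell from 238 ± 2.9 to 32.3 ± 0.20 CPM (-2.88, edgeR adjusted p = 0.000594). GSR, which regenerates glutathione, fell by 1.70 and PGD of the pentose phosphate pathway by 1.91 (edgeR adjusted p = 0.000795 and 0.00127).

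In iron and haem handling 8 of 20 rose and 5 fell, beside 29.9% and 22.8% of all genes. BLVRA rose by 8.15, TF by 5.31 and CISD1, an iron-sulfur protein of the outer mitochondrial membrane, by 3.06 (edgeR adjusted p = 0.000406, 0.00062 and 0.00108). FBXL5, which senses iron and degrades iron regulatory protein, fell by 1.88, the iron exporter SLC40A1 by 1.99 and FECH, the last enzyme of haem synthesis, by 1.99 (edgeR adjusted p = 0.00247, 0.00449 and 0.008). In zinc handling 7 of 18 rose and 4 fell, beside the same shares of all genes. The zinc transporters SLC30A6 and SLC30A7 rose by 5.80 and 1.65 and SLC39A8 by 6.52 (edgeR adjusted p = 8.14e-05, 0.000933 and 0.00164). MTF1, the zinc-sensing factor that drives metallothionein genes, fell from 117 ± 0.34 to 41.3 ± 19.7 CPM (-1.50, SE 0.384, edgeR adjusted p = 0.00992). SLC30A4 fell by 1.52 and SLC30A9 by 1.24 (edgeR adjusted p = 0.00302 and 0.0054).

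The named genes of these 4 lists changed in the same direction in all 8 fits that left out a library. Without Control 8-cell replicate 1 the rise was 5.07 for TXN, 6.10 for BLVRA, 4.17 for SLC39A8, 2.06 for CISD1, 5.35 for BLVRB and 4.27 for TF, and BACH2 stood at 2.66 (edgeR adjusted p = 0.115). The counts of genes that passed in the lists changed with the library left out, as did the number of all genes called. In METTL7A-injected embryos the 4 lists had 3, 3, 8 and 5 genes that rose and 6, 5, 5 and 4 that fell, beside 23.1% and 17.1% of all genes. These counts also changed with the library left out, and so did the number of all genes called.

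The genes whose level was most like that of NFE2L2 over the 8 libraries were SYCE1L, TATDN3 and ZNF326, with a Pearson r of log2 CPM of 0.992, 0.990 and 0.989. For MT2A they were TRPM7, EIF4EBP1 and LOC112441507, with r of 0.994, 0.993 and 0.992. Over 0.95 there were 279 genes of 16148 for NFE2L2 and 458 for MT2A. These r values are descriptions, since the 8 libraries share stage, treatment and the split of the Control 8-cell replicates.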

How the data were processed

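PolyA RNA of embryos was made into cDNA with the SMART-Seq v4 kit and into libraries with Nextera XT, per the labels' protocols, which does not mark strand. The authors deposited whole-number read counts per gene, not normalized. The submitters' processing notes name Trim Galore 0.6.10, FastQC, STAR 2.7.11b, Subread 2.0.6 and DESeq2 1.44.0. The genome build is not given in the sources used here, so no coordinates or sequences are printed. An entry naming no gene (0.184% to 0.95% of counts) was left out, and 0 columns belonged to no sample. Blastocyst libraries were not used here.

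The tests came from edgeR 4.0.16, with limma 3.58.1, under R 4.3.3: TMM scaling, filterByExpr (minimum count 10, minimum total count 15), 1 coefficient per group, all 8 libraries sharing 1 robust quasi-likelihood estimate of the spread, 2-sided, Benjamini-Hochberg over 16149 genes, threshold 0.05. The procedure was tested on simulated data. DESeq2 1.42.0, other scalings and leaving out each library were alternatives. CPM was computed on TMM-scaled totals. Folds against a group at 0 are bounds that set it at 3 counts; intervals and floors cover counting error only. P-values measure the spread between these libraries, which may be technical. Log2 CPM for likeness used a prior count of 3.

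Members and lists were chosen with earlier results of these data known. Named were all 10 members, up to 5 list genes per stage that passed between treatments, up to 3 per list and direction between stages of Control, and the 3 genes most like NFE2L2 and MT2A. CYP11A1, STAR, MT1E, MT1E_1, MT3, MT4, FTMT and IREB2 were chosen after their values were seen.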

Additional observations from a re-analysis of the deposited data

How the results depend on the processing

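Genes called among all tested at the 2-cell stage (2 as reported) were 0 with METTL7A and LOC781439 left out of library sizes, 100 with no low-count filter, 158 with DESeq2 and 1005 when only the compared groups were fitted. At the 8-cell stage all genes called were 2767, 2374 and 283 with no filter, DESeq2 and only those groups, and members called were 1 with RLE size factors, 4 with no filter and 1 with only those groups. Between stages of Control, summing the 2 Control 2-cell libraries gave 5404 genes. Between stages of METTL7A, members called were 5 with no filter, 4 with DESeq2, 5 with only those groups and 1 with Control 2-cell summed. For the difference of effects all genes called were 1 with RLE, 1 without those 2 genes in library sizes, 1354 with no filter, 917 with DESeq2 and 0 with Control 2-cell summed, and members were 3 with no filter and 2 with DESeq2. For the averaged effect all genes called were 0 without those 2 genes in library sizes, 1611 with no filter, 1293 with DESeq2 and 12 with Control 2-cell summed, and members were 2 with no filter and 3 with DESeq2.

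Same-numbered libraries did not deviate together (correlations of -0.027, -0.0065, 0.0043 and 0.059 over the 4 comparisons), so the numbers were not taken to pair samples. With the replicate block, 4 members were called between stages of METTL7A, 24 genes for the difference of effects and 71 for the averaged effect, and FTH1 at the 2-cell stage reversed to -0.046. FTH1 there also reversed with Control 2-cell summed (-0.026). FTL at the 8-cell stage reversed to -0.070 and NQO1 between stages of METTL7A to -0.019 without those 2 genes in library sizes. The NQO1 difference of effects (0.06) reversed to -0.0081 with RLE, -0.16 without those 2 genes in library sizes, -0.016 with no filter and -0.0078 with DESeq2. Leaving METTL7A and LOC781439 out moved the median of all genes from 0.14 to -0.09 at the 8-cell stage and from 0.04 to -0.21 between stages of METTL7A, and RLE moved it from 0.18 to 0.29 between stages of Control. The cause of these shifts was not tested.

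Leaving out each library in turn gave these ranges. Between treatments at the 2-cell stage all genes called ranged from 2 to 50, and log2 changes crossed 0 for NFE2L2 (-0.0087 to 0.76), KEAP1 (-0.43 to 0.067), FTH1 (-0.46 to 0.46), FTL (-0.23 to 0.75) and MT2A (-4.67 to 0.11). At the 8-cell stage members called ranged from 0 to 5 and all genes from 2 to 7126, and NFE2L2 (-0.71 to 0.21) and SRXN1 (-0.57 to 0.29) crossed 0. Between stages of Control all genes ranged from 5127 to 10759 and HMOX2 crossed 0 (-0.41 to 0.56). Between stages of METTL7A members ranged from 0 to 6 and all genes from 3276 to 9149, and HMOX2 crossed 0 (-0.38 to 0.12). For the difference of effects members ranged from 0 to 4 and all genes from 0 to 4571, and NQO1 (-0.16 to 0.27), HMOX2 (-0.64 to 0.33) and FTL (-0.58 to 0.40) crossed 0. For the averaged effect members ranged from 0 to 4 and all genes from 2 to 5024. Where a group keeps 1 library, it is assumed to vary like the others. At 0 to 15 counts in 7 of 8 libraries, depth limits HMOX1.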
